A study of Homo sapiens with 9 samples.

Results

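The APOBEC family of polynucleotide cytidine deaminases was described by 8 genes, APOBEC1, APOBEC3A, APOBEC3B, APOBEC3C, APOBEC3D, APOBEC3F, APOBEC3G and APOBEC3H. The genes were chosen by name, with earlier results of these data known. All 8 were found, each on 1 entry, among the 23284 gene symbols of the RNA-Seq data. RNA came from HT-29, an established human colon cancer cell line, kept for 5 days in 0 µM, 5 µM or 10 µM 5-Aza (5-aza-deoxy-cytidine, a cytidine analogue that inhibits DNA methylation), with 3 separate cultures at each concentration. The 0 µM cultures received the vehicle, dimethyl sulfoxide. All 9 cultures come from a single cell line, and the measured RNA is an average over the cells of a culture, so fewer expressing cells and less RNA per cell cannot be told apart.

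APOBEC enzymes remove the amino group from cytosine in RNA or single-stranded DNA and leave uracil. APOBEC1 edits the messenger RNA of apolipoprotein B in the small intestine. The APOBEC3 enzymes act against retroviruses and endogenous retroelements by deaminating their DNA copies, and several of them are induced by interferon. APOBEC3A and APOBEC3B are also known as sources of cytosine mutations in tumour genomes. Deaminated cytosines in DNA are normally removed by uracil base excision repair.

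The deposited values are FPKM, fragment numbers divided by transcript length and library size, computed by the authors. The deposited values are far larger than FPKM on the usual scale, since an APOBEC3B value of 8832 rests on an estimated 18.3 fragments, so they are read as relative levels, comparable between genes because it is per length. Estimated from the steps of the lowest values, a library held 14223240 to 39102905 fragments. The 5 µM libraries held at least 33762522 fragments each, against 19331637 to 35986645 at 0 µM and 14223240 to 31345592 at 10 µM, so the 5 µM group was the deepest on average, which bears on genes that rest on few fragments.

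Expression of the family was low. APOBEC3B stood between the 16.3 and the 41.4 percentile of the symbols above 0 in its library, and none of the remaining members exceeded the 24.5 percentile. APOBEC3B and APOBEC3F were above 0 in all 9 libraries, APOBEC3A, APOBEC3D and APOBEC3G in 8, APOBEC1 in 7, APOBEC3C in 6 and APOBEC3H in 5. In the 0 µM group, APOBEC3B rested on an estimated 43.5 fragments over 3 libraries and each remaining member on at most 5. A listed 0 is therefore within counting error of the low values beside it.

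Because 5-Aza acts through methylated cytosines at CpG dinucleotides, the start regions of the members are of interest, although methylation was not measured in these samples. RefSeq start regions (GRCh38.p14, 250 bases before to 50 bases after the start) were matched for 2 of the 8 members, APOBEC1 (chr12:7665859-7666158, minus strand) and APOBEC3H (chr22:39096994-39097293, plus strand). Written 5′ to 3′ along the gene with each CpG in capitals, the windows are shown for their CpG content. No window of another member was matched, so CpG content cannot be compared between the members here.
APOBEC1: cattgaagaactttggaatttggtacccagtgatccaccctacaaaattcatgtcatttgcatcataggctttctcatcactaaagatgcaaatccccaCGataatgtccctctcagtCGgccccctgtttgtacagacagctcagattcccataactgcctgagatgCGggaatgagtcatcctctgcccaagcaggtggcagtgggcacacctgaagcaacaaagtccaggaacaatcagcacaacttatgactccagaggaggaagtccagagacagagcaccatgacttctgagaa
APOBEC3H: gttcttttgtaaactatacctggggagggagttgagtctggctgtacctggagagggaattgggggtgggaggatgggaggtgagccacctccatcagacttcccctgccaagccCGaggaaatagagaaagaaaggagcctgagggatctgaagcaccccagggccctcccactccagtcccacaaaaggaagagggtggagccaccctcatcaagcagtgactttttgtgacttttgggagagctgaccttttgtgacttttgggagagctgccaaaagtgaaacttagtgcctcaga
The APOBEC1 region holds 3 CpG, and 24.5% of the 35116 start regions in the table hold as few. The APOBEC3H region holds 1 CpG, and 11.0% hold as few, while the median start region holds 14. A search on both strands for GAAA, any 2 bases and GAAA again, core letters of an interferon response element, found no match in either window, and 3.57% of all start regions hold one. These counts describe the letters of the windows only.

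At 5 µM, 3 of the 8 members rose against 0 µM, and none fell. APOBEC3B, APOBEC3C and APOBEC3F passed limma's test with a difference of more than 1 on the log2(FPKM + 1) scale (p adjusted by Benjamini-Hochberg, threshold 0.05). Over the whole table, 14.1% of the 20051 genes tested were called higher and 2.17% lower. In 6 of the 8 members every 5 µM value lay above every 0 µM value, where 29.4% of all tested genes did, and no member was lower throughout, where 23.2% were. At an unadjusted p under 0.05 and over 2-fold, limma gave 4 members higher (16.8% of all genes) and 0 lower (2.32%). The median log2 difference of the members was 5.70, against 0.14 over all tested genes, and a listed 0 weighs heavily in it, because a pseudocount of 1 is small beside the FPKM of 1 fragment.

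**Figure D1:**
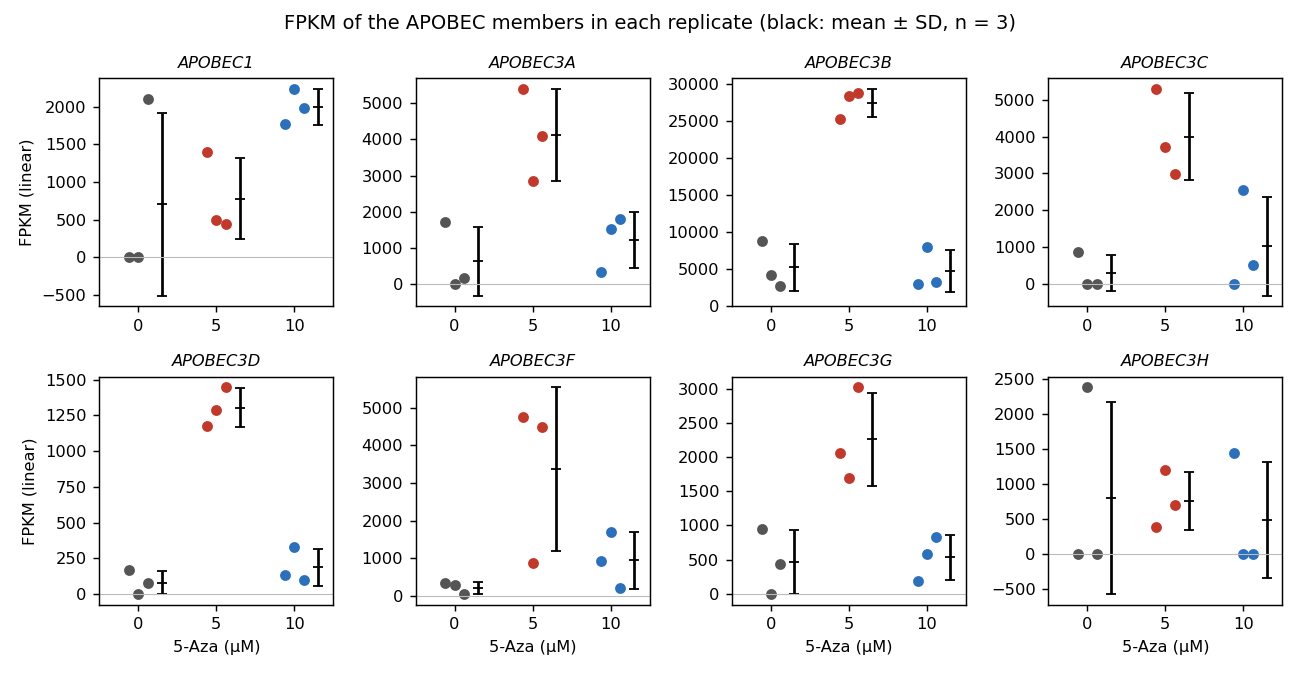
FPKM (linear axis, each panel on its own scale) of each member at 0, 5 and 10 µM 5-Aza, with 1 point per culture and the mean ± SD of 3 cultures in black. APOBEC3B reaches 25268 to 28771 at 5 µM and at most 8832 elsewhere, while APOBEC1 and APOBEC3H show no gap between 0 and 5 µM.

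APOBEC3B, a nuclear deaminase, was the largest part of the family's summed FPKM in each library and rested on the most fragments. The gene lies at chr22:39378352-39388809 (GRCh37, plus strand). Its FPKM was 8832, 4199 and 2699 in the 0 µM cultures, 25268, 28272 and 28771 at 5 µM, and 2948, 7963 and 3307 at 10 µM. Its 5 µM values are close together and stand apart from both other groups, whose values overlap with each other. The mean rose from 5244 ± 3197 (SD, n = 3) to 27437 ± 1895, a log2 difference of 2.56 (SE 0.43, limma adjusted p = 0.00476). In estimated fragments this is 43 against 414, and the ratio of the rates was 6.16 with a 95% exact counting interval of 4.49 to 8.64. Intervals of this kind rest on estimated fragments and cover counting error only, not the spread between cultures.

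APOBEC3F and APOBEC3C were the other members that rose. APOBEC3F, a cytoplasmic deaminase that restricts retroviruses lacking Vif, lies at chr22:39436609-39451977. Its FPKM was 341, 282 and 39.9 at 0 µM and 4761, 875 and 4474 at 5 µM, so that replicate 2 of the 5 µM group stood well below the other two and still above every 0 µM value. The log2 difference was 4.07 (SE 1.11, limma adjusted p = 0.0296), and without 5 µM replicate 1 or 5 µM replicate 3 the adjusted p was 0.108 in both cases. The ratio of estimated rates was 18.8 (95% counting interval 7.88 to 58.8, from 147 against 5 fragments).

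APOBEC3C, a member with a single deaminase domain, lies at chr22:39410262-39416357. It was listed at 851, 0 and 0 FPKM at 0 µM and at 5309, 3724 and 2977 at 5 µM. These values correspond to 1 fragment in all 3 control libraries together and to 15, 10 and 9 fragments at 5 µM, a ratio of rates of 21.7 with a 95% counting interval of 3.65 to 884. The log2 difference of 8.68 (SE 2.68, limma adjusted p = 0.0440) depends on the zeros and was 2.00 with a pseudocount of 1000, where the adjusted p was 0.00208. Leaving out 1 library kept the call only without 0 µM replicate 1 (adjusted p = 0.000701), and without any other library the adjusted p lay between 0.101 and 0.133.

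APOBEC3A, APOBEC3D and APOBEC3G were higher at 5 µM in every culture but did not pass the test. APOBEC3A, a potent deaminase of single-stranded DNA known from myeloid cells, lies at chr22:39348746-39359189 and had an FPKM of 1730, 0 and 181 at 0 µM and of 5396, 2854 and 4093 at 5 µM. Its log2 difference was 5.87 (SE 2.60, limma adjusted p = 0.121), and the ratio of estimated rates was 10.2 (95% counting interval 3.30 to 51.4). APOBEC3G, the classical HIV-1 restriction factor, lies at chr22:39473072-39483748 and had an FPKM of 941, 0 and 441 at 0 µM and of 2053, 1698 and 3016 at 5 µM. Its log2 difference was 4.88 (SE 2.56, limma adjusted p = 0.173), and its ratio of rates was 5.59 (95% counting interval 2.00 to 21.7).

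APOBEC3D, a restriction factor close in sequence to APOBEC3F, lies at chr22:39417118-39429282. It was listed at 166, 0 and 78.0 FPKM at 0 µM and rested on about 1 fragment over these 3 libraries, against 1176, 1287 and 1445 FPKM at 5 µM. The 5 µM cultures lay within a narrow range, and none of the control values came near them. The log2 difference was 5.78 (SE 1.96, limma adjusted p = 0.0590), just past the threshold of 0.05, and the ratio of rates was 18.5 (95% counting interval 3.07 to 757).

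With a pseudocount of 1000, which is near the value of a few fragments, 6 members passed the test in this comparison, namely APOBEC3A, APOBEC3B, APOBEC3C, APOBEC3D, APOBEC3F and APOBEC3G. Their log2 differences were then 1.76, 2.31, 2.00, 1.09, 1.68 and 1.19. Without 0 µM replicate 1, 5 members were called, and without 5 µM replicate 1 or 5 µM replicate 3 the only call was APOBEC3B. For APOBEC3B the call was kept in 18 of 19 alternative settings and lost when limma tested against a 2-fold change (adjusted p = 0.0626).

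APOBEC1 and APOBEC3H showed no separation between 0 and 5 µM. APOBEC1, the RNA editor, lies apart from the others at chr12:7801996-7818504 (minus strand) and had an FPKM of 0, 0 and 2105 at 0 µM and of 1401, 492 and 437 at 5 µM. The single nonzero control value is the highest of the 6. Its log2 difference of 5.71 (SE 3.07, limma adjusted p = 0.181) was 0.24 with a pseudocount of 1000, the ratio of the group means was 1.11 and the ratio of rates was 0.799 (95% counting interval 0.172 to 4.03).

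APOBEC3H, the member with the most divergent deaminase domain, lies at chr22:39493229-39500072 and had an FPKM of 0, 2374 and 0 at 0 µM and of 381, 1202 and 696 at 5 µM. Here too 1 control culture holds the highest value and the others are listed at 0. The log2 difference was 5.68 (SE 3.10, limma adjusted p = 0.188) while the ratio of the group means was 0.960, with a ratio of rates of 0.959 (95% counting interval 0.227 to 4.62). For both genes the interval includes a change of more than 4-fold upwards and downwards.

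**Figure D2:**
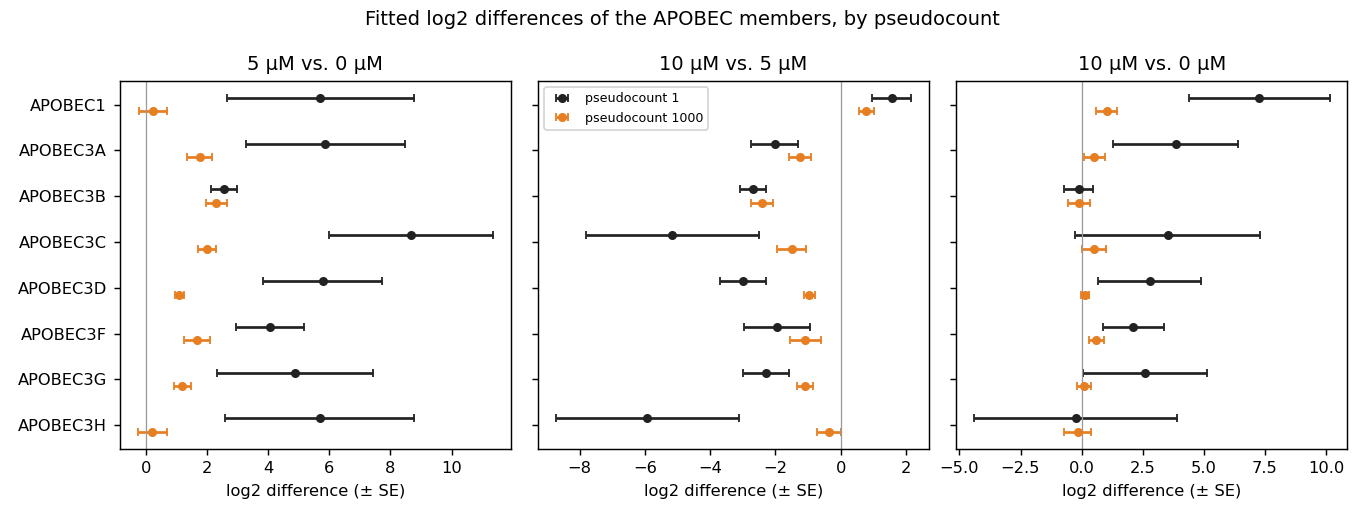
Fitted log2 difference (± SE, 3 against 3 cultures) of each member in the 3 comparisons, with a pseudocount of 1 (black) and of 1000 (orange), each panel with its own linear axis. APOBEC3B hardly moves with the pseudocount (2.56 and 2.31 at 5 µM vs. 0 µM), whereas APOBEC3C moves from 8.68 to 2.00.

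From 5 to 10 µM, APOBEC3B fell and no other member passed the test, where 4.82% of the 20085 tested genes were called lower and 0.129% higher. Every 10 µM value lay below every 5 µM value in 5 members (APOBEC3A, APOBEC3B, APOBEC3C, APOBEC3D and APOBEC3G), against 25.3% of all tested genes. At an unadjusted p under 0.05 and over 2-fold, 4 members were lower (10.6% of all genes) and APOBEC1 was higher (0.408%). The fitted difference was negative in 7 of the 8 members, where 24.4% of all tested genes had a positive one. The median of the members was -2.48, against -0.31 over all tested genes. This comparison and the previous one share the 5 µM cultures, so their values are not independent of each other.

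The fall of APOBEC3B was 2.68 on the log2 scale (log2 difference -2.68, SE 0.40, limma adjusted p = 0.0120). The ratio of estimated rates was 0.187 (95% counting interval 0.138 to 0.249). The call was lost without 5 µM replicate 1, 5 µM replicate 2 or 5 µM replicate 3, with adjusted p = 0.0617, 0.0688 and 0.0803 and log2 differences between -2.74 and -2.65. It was kept without each of the 10 µM cultures.

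The 10 µM cultures differed among themselves. APOBEC3C was listed at 0, 2543 and 500 FPKM, APOBEC3D at 131, 332 and 97.8, and APOBEC3F at 938, 1710 and 200. In each of these, as in APOBEC3B, replicate 2 held the highest value of the group. APOBEC3A was at 337, 1540 and 1805 FPKM, APOBEC3G at 185, 586 and 829, and APOBEC3H at 1441, 0 and 0. The log2 differences from 5 µM were -2.99 for APOBEC3D (SE 0.71, limma adjusted p = 0.0570), -2.29 for APOBEC3G (adjusted p = 0.109), -2.02 for APOBEC3A (adjusted p = 0.149) and -1.95 for APOBEC3F (adjusted p = 0.268). Without 10 µM replicate 2, APOBEC3D was called as well (log2 difference -3.51, adjusted p = 0.0197), and without 10 µM replicate 1, APOBEC3H was.

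APOBEC1 was the exception in direction. Its FPKM at 10 µM was 1768, 2238 and 1981, a tight group that lay above all 5 µM values. The groups did not overlap, as in 4.37% of all tested genes in this direction, but the log2 difference of 1.57 (SE 0.60) did not pass the test (limma adjusted p = 0.173). The values rest on 9 against 5 fragments, and the ratio of rates was 2.63 with a 95% counting interval of 0.790 to 9.97.

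Between 10 and 0 µM, none of the 8 members was called by limma, and only APOBEC1 had an unadjusted p under 0.05 with more than a 2-fold difference (log2 difference 7.28, adjusted p = 0.118), against 7.06% of all genes higher and 4.43% lower by that measure. The APOBEC1 difference depends on listed zeros in the control and ran from 1.04 to 9.49 over the settings that kept all cultures. The ratio of the group means was 2.84. The ratio of rates was 2.10 (95% counting interval 0.586 to 9.32), from 9 against 4 fragments. Without 0 µM replicate 3, the only control library with APOBEC1 reads, the limma adjusted p was 0.0127, from control values that were then all 0. Of 18928 tested genes, 4.07% were called higher and 3.4% lower, a split of 771 to 644 that became 1768 to 105 when libraries were scaled by their estimated fragments. APOBEC3B differed by -0.12 (SE 0.60, adjusted p = 0.907), and its sign depended on the scaling. Its ratio of rates was 1.15 (95% counting interval 0.754 to 1.76). The ratio for APOBEC3F was 5.41 (95% counting interval 2.07 to 17.9), while the log2 difference of 2.12 did not pass the test (adjusted p = 0.260) and 10 µM replicate 3, at 200 FPKM, lay within the control range. In all 8 members the 10 and 0 µM groups overlapped, while 14.4% of all tested genes were higher and 26.7% lower without overlap.

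The order of the members changed below the top. APOBEC3B had the highest mean at each concentration, and all of its values exceeded all values of the next member. At 0 µM no other neighbours in the order were separated. At 5 µM the order was APOBEC3B, APOBEC3A, APOBEC3C, APOBEC3F, APOBEC3G, APOBEC3D, APOBEC1 and APOBEC3H, with APOBEC3G separated from APOBEC3D and the remaining neighbours overlapping. At 10 µM APOBEC1 followed APOBEC3B, with a mean of 1996 against 4739 FPKM.

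Summed over the 8 members, the FPKM was 12861, 6855 and 5544 at 0 µM, 45745, 40403 and 45909 at 5 µM, and 7748, 16911 and 8721 at 10 µM. All 5 µM sums stand apart from the rest, and the 0 and 10 µM sums overlap. The ratio of the means was 5.23 for 5 against 0 µM and 0.253 for 10 against 5 µM, each with an exact permutation p of 0.1 (2-sided), the smallest that 3 against 3 allows. For 10 against 0 µM the ratio was 1.32 (exact permutation p = 0.5). Without APOBEC3B the mean sum was 3176 ± 744 (SD, n = 3) at 0 µM and 16582 ± 4201 at 5 µM, a ratio of 5.22 (exact permutation p = 0.1). Without APOBEC3B the 10 µM sums, 4800 to 8949, also lay above the 0 µM sums, 2656 to 4029, unlike the sums over all 8 members. The ratio was 2.01 (exact permutation p = 0.1). The sum without APOBEC3B was not planned, and no single member was separated in this comparison. APOBEC1, on 4 and 9 fragments, had means of 702 FPKM at 0 µM and 1996 at 10 µM within it. APOBEC3B made up 59.5% ± 10.1 of the sum at 0 µM, 62.6% ± 7.37 at 5 µM and 41.0% ± 5.25 at 10 µM (SD, n = 3).

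**Figure D3:**
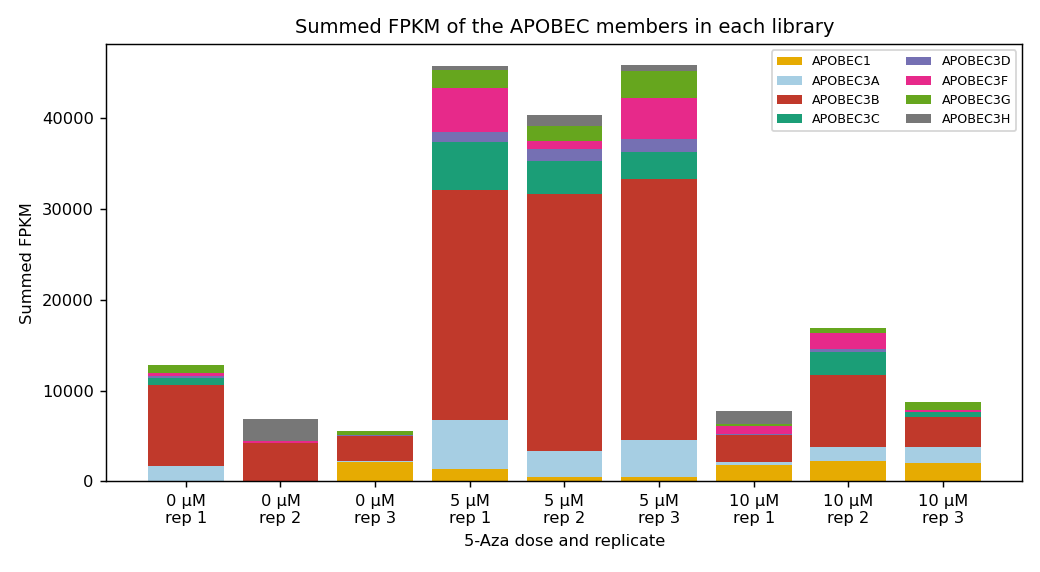
Summed FPKM (linear axis from 0) of the 8 members in each of the 9 libraries, divided by member. The 3 libraries at 5 µM reach 40403 to 45909 and all others stay at or below 16911, and APOBEC3B (red) is the largest part in each library.

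Near-identical sequence limits how far neighbours in this family can be told apart. In the annotated transcripts, 15.2% of the 100-base windows of APOBEC3B occur exactly in another member, as do 12.7% of those of APOBEC3A, 9.23% of APOBEC3D, 7.30% of APOBEC3G and 5.96% of APOBEC3F. None do in APOBEC1, APOBEC3C or APOBEC3H. With up to 2 mismatches the shares were 30.2% for APOBEC3B, 27.1% for APOBEC3A, 15.9% for APOBEC3G and 15.7% for APOBEC3D. They were 12.8% for APOBEC3F, 2.12% for APOBEC3C and 0 for APOBEC1 and APOBEC3H. The closest partner of APOBEC3A was APOBEC3B, and APOBEC3D and APOBEC3F were closest to each other. By the approximate length relation, the smallest step of APOBEC3D, APOBEC3F and APOBEC3G came to 0.49, 0.46 and 0.40 fragment. A step could only be set to 0.5 or 1 fragment, with the transcript that came closest. The value of 0.5 used for these 3 members was thus set and not measured. How reads with several positions were counted is not given in the sources used here. Of the 3 members without an exact shared window, the 0 and 5 µM groups were separate in APOBEC3C and overlapped in APOBEC1 and APOBEC3H. The part of shared sequence in these values was not tested.

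The 7 APOBEC3 genes stand side by side over 151 kb of chromosome 22 (22q13.1), and the nearest genes on both sides included 1 call. On one side, CBX6, a Polycomb subunit, differed by -0.47 at 5 µM vs. 0 µM (limma adjusted p = 0.00625, under the 2-fold limit), and NPTXR, a neuronal pentraxin receptor, rose by 1.55 (SE 0.41, adjusted p = 0.0262), a call lost without each of the 5 µM cultures. On the other side, CBX7, another Polycomb subunit, differed by 0.08 (adjusted p = 0.543) and PDGFB, a growth factor chain, by -0.17 (adjusted p = 0.0962). With upper-quartile scaling the median difference of genes above 0 in all 6 samples moved from -0.04 to 0.31. That shift bears on the small decreases of CBX6 and PDGFB. Of 9 listed neighbours, NPTXR and SYNGR1 were called higher and RPL3 lower, where 14.1% and 2.17% of all tested genes were. SYNGR1, a synaptic vesicle protein, was listed at 0 in all 3 control cultures and at 1875, 2479 and 2174 FPKM at 5 µM. RPL3, a ribosomal protein, fell by 1.48. The genes around APOBEC1 on chromosome 12, CD163L1, CD163, GDF3 and DPPA3, held no call, and GDF3 and DPPA3 were listed at 0 throughout.

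**Figure D4:**
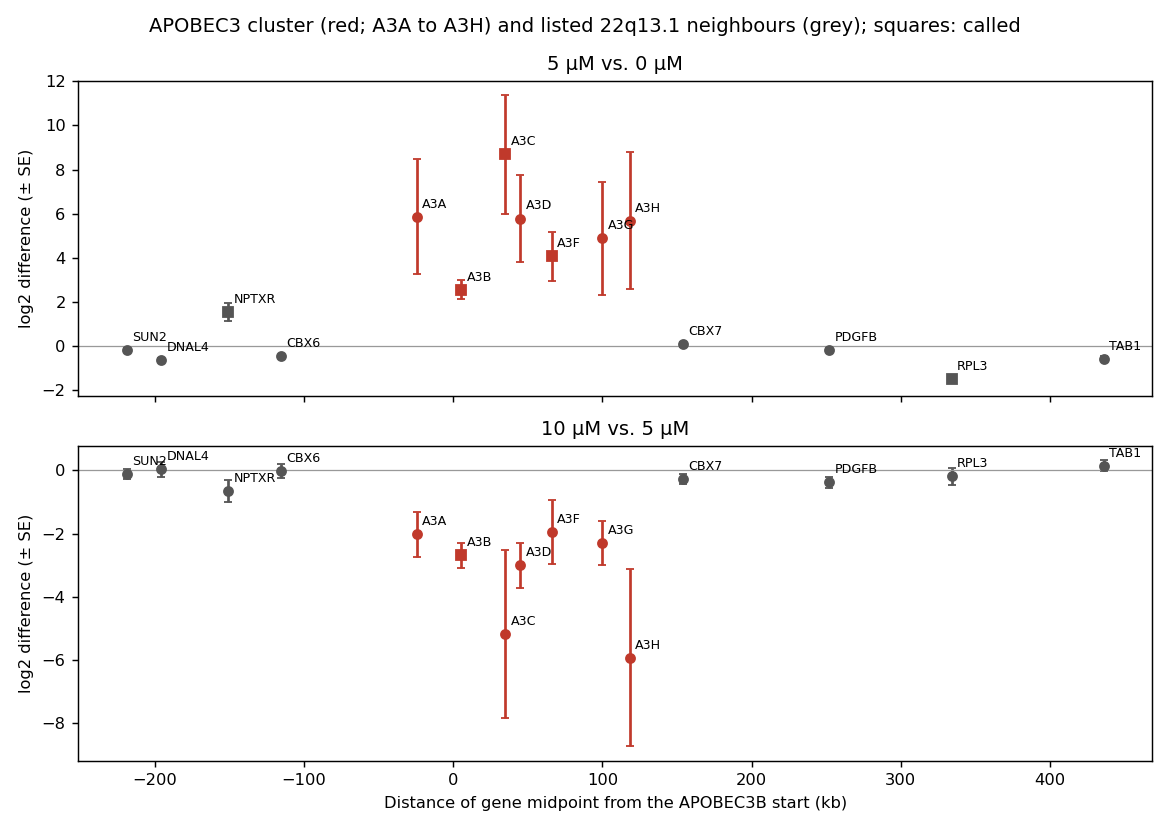
Log2 difference (± SE, 3 against 3 cultures) of the 7 APOBEC3 genes (red) and of listed 22q13.1 neighbours (grey) against the distance of the gene midpoint from the APOBEC3B start in kb, with squares for called genes and SYNGR1 left out because it was listed at 0 in the control. At 5 µM vs. 0 µM the red points lie between 2.56 and 8.68 with a pseudocount of 1, a height that depends on listed zeros, since with a pseudocount of 1000 APOBEC3H is at 0.20 and APOBEC3D at 1.09.

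APOBEC2 and APOBEC4, relatives outside the 8 members, gave no call. APOBEC2, a muscle protein without known deaminase activity, was at 2683, 1066 and 2764 FPKM in the control, 5131, 4695 and 3754 with 5 µM and 7600, 4275 and 5677 with 10 µM. Both treated groups lay above the control, with log2 differences of 1.17 (limma adjusted p = 0.0917) and 1.51 (adjusted p = 0.0877). APOBEC4, of unknown function, did not pass the test in any comparison (adjusted p = 0.229 at 5 µM vs. 0 µM).

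APOBEC1 works with RNA-binding partners on the apolipoprotein B transcript, and none of these 4 genes was called. The partners A1CF and RBM47 and the APOBEC1-binding SYNCRIP differed by 0.53, -0.41 and -0.42 at 5 µM vs. 0 µM. APOB, the classical editing target, was listed at 219, 0 and 0 FPKM at 0 µM and at 365, 671 and 469 at 5 µM (log2 difference 6.33, SE 2.25, limma adjusted p = 0.0679).

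The genes listed for uracil repair and dUTP control were UNG, SMUG1, TDG, MBD4, APEX1, APEX2, XRCC1, LIG3, POLB and DUT, with REV1 and REV3L, which copy DNA past damaged bases. None of these 12 was called in any of the 3 comparisons, and their median log2 difference at 5 µM vs. 0 µM was -0.10. Under the 2-fold limit, DUT, which destroys dUTP, was lower at 5 µM (171401 against 87249 FPKM in mean, log2 difference -0.995, SE 0.15, limma adjusted p = 0.00328), and LIG3, APEX1 and APEX2 were lower as well, with differences of -0.50, -0.39 and -0.37 and adjusted p of 0.00526, 0.0293 and 0.0160. POLB, a repair polymerase, was higher by 0.43 (adjusted p = 0.0495). With upper-quartile scaling, the median difference of genes above 0 in all 6 samples moved from -0.04 to 0.31. With median-of-ratios scaling that median was 0.001. The decreases of APEX1 and APEX2 are of about the size of the upper-quartile shift and were not compared between scalings. Among enzymes that deaminate free nucleosides or nucleotides, CDA (cytidine deaminase, which also inactivates 5-Aza) rose by 1.28 (SE 0.16, limma adjusted p = 0.00147) and then fell by 1.79 from 5 to 10 µM, a call lost without 5 µM replicate 1 or 5 µM replicate 3. DCTD, deoxycytidylate deaminase, decreased by 1.07 at 5 µM (adjusted p = 0.00122) and differed by -0.73 with upper-quartile scaling, under the 2-fold limit. CDADC1 was not called. The 3 adenosine deaminases acting on RNA (ADAR, ADARB1 and ADARB2) gave no call in any comparison.

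Of 12 other restriction factors, 4 were called higher at 5 µM and none lower, against 14.1% and 2.17% of all tested genes. These were TRIM22 (log2 difference 1.61), RNASEH2A (1.28), SAMHD1 (1.27) and BST2 (1.22), which respectively encode an interferon-induced ubiquitin ligase, the catalytic subunit of a ribonuclease, a deoxynucleotide hydrolase and the virion tether. The calls of TRIM22 and SAMHD1 were kept in 14 and 17 of 19 alternative settings, that of TRIM22 being lost without each of the 5 µM cultures and that of SAMHD1 without 0 µM replicate 3. Of the 12, 7 were higher in every 5 µM culture than in every control culture, where 29.4% of all tested genes were. In the other direction 3 were lower throughout, where 23.2% of all tested genes were. These 3 were RNASEH2B, another subunit of that ribonuclease (log2 difference -0.92, SE 0.11, limma adjusted p = 0.00147, under the 2-fold limit), MORC2 (-0.29, adjusted p = 0.030) and TASOR (-0.37, adjusted p = 0.0569). With upper-quartile scaling the median difference of genes above 0 in all 6 samples moved from -0.04 to 0.31. With median-of-ratios scaling it was 0.001. The differences of MORC2 and TASOR are of about the size of the upper-quartile shift and were not compared between scalings. None of the 12 was called between 10 and 5 µM or between 10 and 0 µM.

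Interferon response genes were read beside the APOBEC3 genes. At 5 µM, 10 of 13 were called higher and none lower, against 14.1% and 2.17% of all tested genes. Their median log2 difference was 1.46, against 0.14 over all tested genes. MX1, an antiviral GTPase, was at 620180, 504998 and 277353 FPKM in the control and at 1631050, 1670770 and 1572800 at 5 µM, a log2 difference of 1.87 (SE 0.28, limma adjusted p = 0.00325). IFIT3, ISG15 and IFI44L rose by 1.85, 1.74 and 1.73. From 5 to 10 µM none of the 13 was called, where 4.82% of all tested genes were called lower. All 13 differences were negative (median -0.71, against -0.31 over all tested genes), where 24.4% of all tested genes had a positive one. In 9 of them every 10 µM value lay below every 5 µM value, against 25.3% of all tested genes. At 10 µM vs. 0 µM, IFI44L was higher (log2 difference 1.12, adjusted p = 0.0361), a call kept in 11 of 19 alternative settings and lost with every single culture left out except 0 µM replicate 1, with adjusted p up to 0.118. MX1 at 10 µM was at 694472, 1161900 and 883136 FPKM, again highest in replicate 2.

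**Figure D5:**
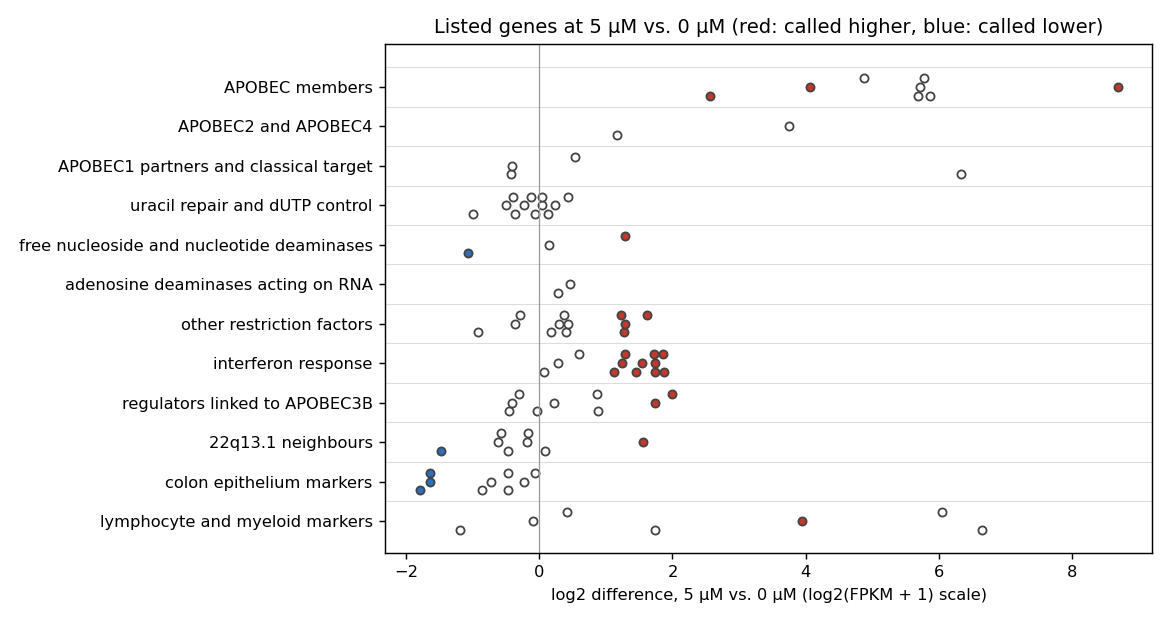
Log2 difference at 5 µM vs. 0 µM of each tested gene, in rows by gene list (vertical offsets within a row only separate points), filled red where called higher, blue where called lower and open where not called. With a pseudocount of 1 all 8 APOBEC members lie at or above 2.56 (APOBEC1 is at 0.24 and APOBEC3H at 0.20 with 1000). All 13 interferon response genes lie above 0, as do 57.1% of all tested genes. The row for uracil repair and dUTP control (12 genes) holds no call, and 6 genes listed at 0 in every library of 1 group are not drawn.

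Transcription factors that have been linked to APOBEC3B expression were listed as 9 genes. At 5 µM vs. 0 µM, 2 of the 9 were called higher and 0 lower, against 14.1% and 2.17% of all tested genes. E2F1 rose by 1.74 (limma adjusted p = 0.000685) and MYBL2, a factor that binds the MuvB cell cycle complex, by 2.00 (adjusted p = 0.00608) at 5 µM vs. 0 µM. LIN9, a MuvB subunit, differed by 0.22 (adjusted p = 0.493). From 5 to 10 µM, MYBL2 differed by -0.97 (adjusted p = 0.0440), under the 2-fold limit. The NF-κB genes were not called. RELB and NFKB2 of the non-canonical branch differed by 0.87 and 0.88, under the 2-fold limit, and RELA and NFKB1 by -0.45 and -0.41. Upper-quartile scaling moved the median of genes above 0 in all 6 samples from -0.04 to 0.31, which bears on decreases of this size. E2F1 remained higher at 10 µM vs. 0 µM (log2 difference 2.08). FOXM1, a mitotic factor, fell by 1.25 from 5 to 10 µM and by 1.29 at 10 µM vs. 0 µM. The first call was lost without each of the 5 µM cultures. The second was lost without 4 of the 6 cultures (0 µM replicates 1 and 2, 10 µM replicates 1 and 3) and with upper-quartile scaling or scaling by the estimated fragment total, the last giving a difference of -0.77.

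Markers of cell types were read beside these values, since APOBEC3 genes are abundant in blood cells. The 9 colon epithelium markers were all above 0 in each group, and their summed FPKM was 9.01e+07 to 1.08e+08 at 0 µM, 3.72e+07 to 4.17e+07 at 5 µM and 2.94e+07 to 5.17e+07 at 10 µM. KRT19, KRT8 and KRT18, keratins of simple epithelium, fell at 5 µM vs. 0 µM, with log2 differences of -1.79, -1.65 and -1.64. LGALS4, CDX2, VIL1 and KRT20 differed by -0.87, -0.73, -0.47 and -0.46, under the 2-fold limit. In 7 of the 9 markers every 5 µM value lay below every 0 µM value, against 23.2% of all tested genes. At 10 µM vs. 0 µM this held for all 9 (26.7% of all tested genes), and KRT19, KRT20 and CDX2 were called lower. With upper-quartile scaling the calls of KRT20 and CDX2 were lost. KRT8 and KRT18, with control means of 3.94e+07 and 3.30e+07, carry most of the sum. CDH1 and EPCAM, adhesion proteins of epithelium, were not called and differed by -0.06 and -0.23. The 12 lymphocyte and myeloid markers summed to 41448 to 54092 at 0 µM, 55184 to 67127 at 5 µM and 48988 to 59303 at 10 µM, most of it CD14 at 35247 to 50081 in every library. The pan-leukocyte PTPRC was at most 983 FPKM, CD2 was listed at 0 in all 9 libraries, and 4 of the 12 markers were listed at 0 throughout the control group. CD3E was listed at 0 in the control and at 732, 770 and 912 FPKM at 5 µM, and ITGAM, an integrin chain of myeloid cells, rose by 3.94 (adjusted p = 0.00193). NKG7, of cytotoxic lymphocytes, was lower in every 5 µM culture (log2 difference -1.18, adjusted p = 0.0535). The part of these shifts in the APOBEC3 values was not tested.

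For the 2 members above 0 in every library, the symbols of most similar course were sought among the 15278 above 0 in all 9 libraries, as the root mean square difference of centred log2(FPKM + 1). For APOBEC3B these were GEM (0.42), SNAI1 (0.42) and CKM (0.43), against a median of 1.33 over all symbols. For APOBEC3F they were GPC3 (0.69), FSTL4 (0.74) and COL8A2 (0.93), against a median of 2.11. This is a description over 9 libraries that differ in depth and dose, without a test.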

How the data were processed

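RNA of 9 HT-29 cultures was sequenced as 100-base read pairs. Per the methods, the authors used FASTX-Toolkit to filter reads, TopHat (default settings for paired reads) to place them on hg19 and Cufflinks to give each gene the deposited FPKM. The annotation version, the Cufflinks options and how Cufflinks treated reads with several positions are not given in the sources used here. FPKM already divides by length and library, so a library term or a repeated sequence can move a value, and no raw counts were used. FPKM of repeated symbols were summed. Each comparison used limma 3.58.1 under R 4.3.3 on log2(FPKM + 1) of its 6 samples with an intensity trend, over genes reaching 10 FPKM in 1 sample, with Benjamini-Hochberg adjustment over all genes. The scripts were tested on simulated data. Only well-covered genes were given a change there, so the test does not cover genes that rest on few fragments. Fragments were estimated from the whole steps of low values (46 of 46 values at 12 microRNA genes were whole multiples, tolerance 0.01). Transcript length was used for APOBEC3A, APOBEC3B, APOBEC3H and the library totals. For the remaining members it served to set the fragments per step. The length relation held within 3% for 26.8% of 511 genes, so these numbers are approximate. Intervals are 95% conditional exact intervals from rounded fragments. Single sums were compared by exact permutation tests. Positions are from GENCODE on GRCh37. Tables were made in Python 3.11.15 (scipy 1.17.1, numpy 2.4.6, pandas 2.3.3).

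The members and gene lists were chosen with earlier results of these data known. Named genes are all members, called genes of each list (at most the 4 largest differences per comparison), genes needed to describe a role, the 2 neighbours on each side of each locus and the 3 symbols most similar to each member above 0 throughout. TASOR was found under its older symbol FAM208A. Alternatives were other pseudocounts, filters, scalings and fits, and leaving out each culture. The samples of the same replicate number did not deviate together, so the main fits have no replicate block. One listed gene is not reported here.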

Additional observations from a re-analysis of the deposited data

How the results depend on the processing

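All 8 members kept a positive fitted log2 difference at 5 µM vs. 0 µM in every limma setting tried, where 57.1% of all tested genes were positive in the main fit. The ratios of estimated rates were nevertheless 0.799 for APOBEC1 and 0.959 for APOBEC3H. The number called ranged from 1 to 5 when 1 culture was left out. It was 6 with a pseudocount of 1000, 1 without the intensity trend and 0 when limma tested against a 2-fold change. At 10 µM vs. 5 µM, 2 members were called lower with a pseudocount of 1000, with only genes above 0 in all 6 samples, with upper-quartile scaling and without the trend, 0 against a 2-fold change, and 0 to 2 with 1 culture left out. At 10 µM vs. 0 µM, 0 to 1 were called higher with 1 culture left out, the 1 being APOBEC1 without 0 µM replicate 3, which leaves its control values all at 0. The difference of APOBEC3B in this comparison changed sign with median-of-ratios scaling (0.12), upper-quartile scaling (0.28) and scaling by the estimated fragment total (0.40), the last added after seeing the data, and ranged from -0.57 to 0.34 with 1 culture left out. APOBEC3H changed sign with the last scaling (0.020) and ranged from -3.74 to 3.50 with 1 culture left out (1.51 without 10 µM replicate 2 or replicate 3), and APOBEC3G ranged from -0.52 to 4.42. The cause was not tested.

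Over all genes at 5 µM vs. 0 µM, 4263 were called higher and 3553 lower without a fold limit, and 1463 and 70 against a 2-fold change. Lower calls were 138 with upper-quartile scaling and 155 with the estimated total. With 1 culture left out the counts were 2388 to 3027 and 406 to 507. At 10 µM vs. 5 µM, higher calls were 64 without a fold limit, 65 with median-of-ratios scaling, 56 with the estimated total, 16 without the trend and 7 against a 2-fold change, where lower calls were 374. With 1 culture left out they were 12 to 64 higher and 176 to 1873 lower. At 10 µM vs. 0 µM, lower calls were 1837 without a fold limit, 286, 154 and 105 with the 3 scalings in the order above, 278 without the trend and 16 against a 2-fold change. Higher calls were 1174 with all 9 samples in 1 fit, 1433 with upper-quartile scaling, 1768 with the estimated total and 145 against a 2-fold change. With 1 culture left out they were 337 to 819 higher and 165 to 1500 lower. The median difference of genes above 0 in all 6 samples at 5 µM vs. 0 µM was -0.04 as deposited and 0.31 with upper-quartile scaling, and APOBEC3B differed by 2.31 to 2.91 over the settings that kept all cultures.

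Same-numbered samples correlated between -0.0743 and 0.086 in their deviations, so they share only a number. With the replicate block, 2 members were called higher at 5 µM vs. 0 µM (APOBEC3B and APOBEC3C; APOBEC3F adjusted p = 0.0587), and 11 genes were called higher and 407 lower at 10 µM vs. 5 µM, in limma. Counts of a few fragments limit every member but APOBEC3B.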
